A study of Drosophila melanogaster with 6 samples.

Results

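Chromosome 4 is the smallest Drosophila autosome, and it is largely packaged as heterochromatin although most of its genes are transcribed. Its gene bodies carry methylation of histone H3 laid down largely by the methyltransferase Egg, they are bound by the heterochromatin protein HP1a, and the chromosome-specific protein POF binds the nascent transcripts of its active genes and supports their output. The chromosome is known for developmental regulators such as the Pax genes ey, toy and sv, for the giant muscle protein Projectin (bt) and for many genes that act at synapses. Its expression was examined here in larval myoblasts with and without knockdown of M1BP (Motif-1-binding protein), a factor that recognises the Motif 1 element of core promoters.

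The genes were selected on their raw counts, which are a measured value. Of the 17494 genes of the exon count table, 109 lay on chromosome 4, and 85 of these were kept because their counts summed over the 6 libraries reached at least 60. The other 24 genes comprised ci, pan, RpS3A and ATPsynbeta, which were left out by name, and 20 genes under the count minimum. The kept genes just above the minimum were toy with 61 counts and bt with 89 counts in all, and the genes just below it were the TGF-beta ligand gene Actbeta with 55 and lncRNA:CR45123 with 47. The 85 genes comprised 71 protein-coding genes, 13 noncoding RNA genes and 1 pseudogene, and all 85 passed the filter on low counts and were tested. The minimum was applied to the sum over both genotypes, so a low gene could also reach it through the genotype in which it was higher. This holds for bt and toy, which would have stayed below the minimum at their WT counts in all 6 libraries.

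The cells were wing disc myoblasts collected 0 h after puparium formation (APF), from animals raised at 25 °C, in which Mef2-GAL4 drove UAS-GFP::Gma, a green fluorescent actin-binding reporter. Mef2-GAL4 is active throughout the muscle lineage, and GFP-positive viable cells from many pooled discs were sorted by FACS. There were 3 WT libraries, with the driver and the reporter alone, and 3 M1BP RNAi libraries, in which the driver also expressed UAS-M1BP RNAi #1, a KK line of the VDRC collection. The study's methods describe separate RNA preparations for the 3 libraries of a genotype and independent biological replicates in general, and p-values measure the spread between these libraries. As a single RNAi line was sequenced, effects of M1BP loss and of the line itself cannot be told apart.

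The libraries held between 43086545 and 51855156 counts. M1BP was at 5821, 5288 and 5589 raw counts in WT and at 1386, 1703 and 1671 in M1BP RNAi. The 3 knockdown libraries lay below the 3 WT libraries, with a log2 fold change of -1.72 (SE 0.10) and an adjusted p of 1.45e-05 by edgeR, whose quasi-likelihood p-values, adjusted by the method of Benjamini and Hochberg over the 10306 genes tested, are used throughout. The 8 myoblast markers summed to 10300 to 11900 CPM (counts scaled by library size) in WT and to 10400 to 11100 in M1BP RNAi. Markers of other cells were present at lower levels, with 1650 to 1970 CPM against 1560 to 1710 for wing disc epithelium, 25.4 to 37 against 18.7 to 23.8 for haemocytes, 31 to 59.2 against 19.2 to 33.5 for trachea and 30.9 to 33.3 against 28 to 32.5 for neurons. The epithelial sum rested mostly on shg, bbg and ap, at means of 44910, 25010 and 13730 normalised counts in WT. The other epithelial markers lay between 61.94 (vvl) and 431.1 (crb). Single libraries differed: in M1BP RNAi 1, 2 and 3, crb was at 428.3, 462.7 and 138.1 and Fas3 at 413.3, 428.1 and 98.23. In the same order grh was at 203.2, 91.9 and 38.88. By contrast nub was lowest in M1BP RNAi 1 (62.05), vvl was alike in M1BP RNAi 2 and 3 (27.03 and 26.61), and shg, bbg and ap were lowest in M1BP RNAi 2. All 8 epithelial markers had lower values in M1BP RNAi and none passed an adjusted p of 0.05. Whether these differences in other cells bear on the values below was not tested, and in sorted bulk RNA fewer cells of a type and less RNA per cell cannot be told apart.

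Taken as a whole, the chromosome 4 genes stood at close to the same level in the 2 genotypes. The 85 genes took 0.8296%, 0.8411% and 0.9154% of the counts of the WT libraries and 0.8562%, 0.8295% and 0.859% of those of the M1BP RNAi libraries. The genotypes overlapped, and WT 3 stood highest. The median log2 fold change, M1BP RNAi over WT, was -0.0032 over the 85 genes, with quartiles of -0.074 and 0.27, beside a median of 0.0070 over all genes tested with quartiles of -0.14 and 0.13. On the other arms the medians lay between -0.0024 on 3L and 0.013 on 2L, so the chromosome 4 median fell just below the lowest of them, by far less than the width of any box. Values were higher in M1BP RNAi for 41 of the 85 genes and lower for 44, and the median size of the change regardless of direction was 0.13 on the log2 scale against 0.14 for all genes. The 95% confidence interval of the change stayed within 1.5-fold in either direction for 53 of the 85 genes (62.4%), against 64.7% of all genes tested.

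**Figure D1:**
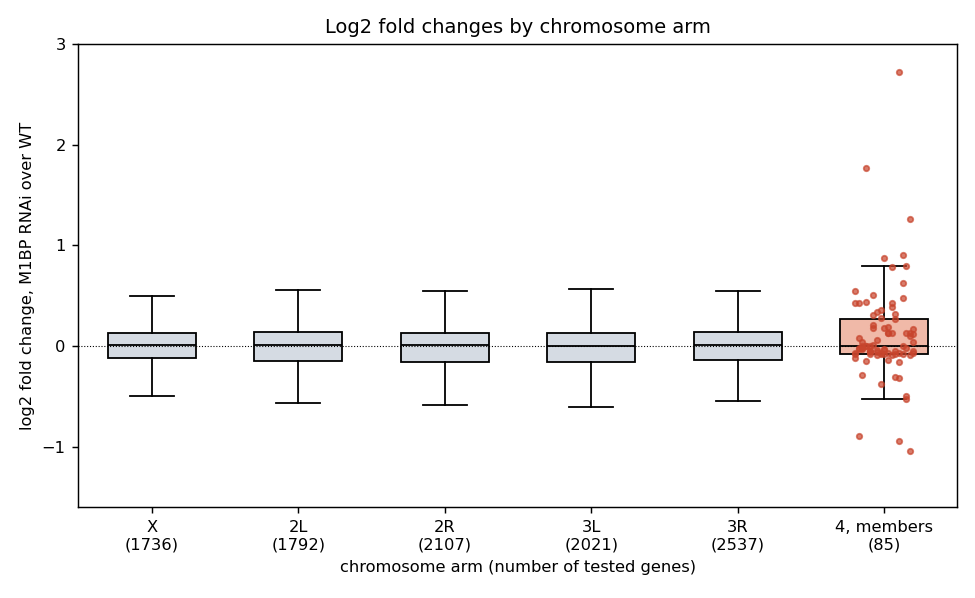
Log2 ratio of M1BP RNAi to WT (y axis) by chromosome arm (x axis, number of tested genes in parentheses), with boxes from the lower to the upper quartile, a line at the median and whiskers to the last gene within 1.5 times the box. Single genes are drawn for chromosome 4 only, as points with sideways jitter. The medians of the 6 boxes all lie close to 0, between -0.0032 for chromosome 4 and 0.013 for 2L, and the chromosome 4 box reaches further up, to 0.27.

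Few single genes differed between the genotypes. The threshold of the study asks for an adjusted p of 0.001 or less and a 1.5-fold change or more, and the study applied it to DESeq2. With edgeR none of the 85 genes passed it (0 of 85), where 0.475% of all genes tested did. With DESeq2, the tool of the study, 2 of the 85, CG32017 and CR43361, passed that threshold. So did 172 of all genes, against 49 with edgeR. At an adjusted p of at most 0.05 DESeq2 called 9 of the 85, against 7.97% of all genes. At an unadjusted p under 0.05 edgeR called 13 of the 85 (15.3%) against 20.2% of all genes. At an adjusted p of at most 0.05, 5 of the 85 genes were called (5.88%), against 4.09% of all genes. Of these, 4 were higher in M1BP RNAi (4.71%), against 1.92% of all genes, and 1 was lower (1.18%), against 2.17%. The 3 libraries of one genotype lay wholly above those of the other for 21 of the 85 genes (24.7%), against 26.1% of all genes, with the M1BP RNAi libraries above in 15 (17.6%, against 13.8% of all genes) and below in 6 (7.06%, against 12.3%). The shares in 1 direction rest on few genes, 4 for those called higher.

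CG32017 had the largest log2 fold change of the 85 genes. It is a protein-coding gene at chr4:1137830-1162158 of dm6, with no role given to it here. Its raw counts were 9, 8 and 17 in WT and 59, 58 and 94 in M1BP RNAi. The gene was nearly silent in the 3 WT libraries, and each knockdown library lay above all of them. With 9 and 8 counts in WT 1 and WT 2, it passed the filter on low counts (minimum count 10) only because of the M1BP RNAi libraries. Its higher value there was thus favoured by the filter, and with no filter its edgeR adjusted p was 0.00121. Its normalised counts, scaled to a common effective library size, averaged 10.9 ± 4.3 in WT against 72.6 ± 20.5 after knockdown (SD, n = 3), and its log2 fold change was 2.72 (SE 0.42, edgeR adjusted p = 0.00609). Its exons share 2.11% of their bases with those of CG11155 on the opposite strand, whose log2 fold change was 0.18 (SE 0.26, edgeR adjusted p = 0.733).

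Sox102F was the single gene that fell. It encodes an HMG-box transcription factor of the SoxD group and lies at chr4:800436-834393, with no exon overlapping another gene. Its normalised counts were 6448, 6663 and 6607 in WT and 4759, 5085 and 5307 in M1BP RNAi. The WT libraries lay close together and all 3 knockdown libraries below them, at a log2 fold change of -0.38 (SE 0.060, edgeR adjusted p = 0.00698). CG32017 and Sox102F were also called whichever of the 6 libraries was left out.

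CG1674 and CG11076 were modestly higher after knockdown. CG1674 (chr4:230730-245903, protein coding) was at 3924, 4178 and 4011 normalised counts in WT and at 5464, 4797 and 5602 in M1BP RNAi. The genotypes did not overlap, and the log2 fold change was 0.39 (SE 0.071, edgeR adjusted p = 0.0161). CG11076 (chr4:1029711-1031757, protein coding) was at 2000, 2001 and 1982 in WT and at 2383, 2710 and 2600 in M1BP RNAi. The WT values were nearly identical and the knockdown values lay above each of them, with a log2 fold change of 0.36 (SE 0.069, edgeR adjusted p = 0.0195). Of its exonic bases, 13% lie within exons of ATPsynbeta on the opposite strand, and the log2 fold change of ATPsynbeta was -0.11. ATPsynbeta held 425991 counts over the 6 libraries against 13608 for CG11076. Reads in the shared bases cannot be told apart, so the value of CG11076 is uncertain. Each of these calls was lost in 4 of the 6 fits without 1 library: for CG1674 the adjusted p was 0.0897 without WT 1, 0.0563 without WT 3, 0.0578 without M1BP RNAi 1 and 0.0758 without M1BP RNAi 3, and for CG11076 it was 0.0816 without WT 1, 0.0645 without WT 3, 0.102 without M1BP RNAi 2 and 0.0765 without M1BP RNAi 3.

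The pseudogene CR43361 (chr4:905179-907924) was also higher. In WT its raw counts were 192, 86 and 125, and after knockdown they were 343, 340 and 212. The genotypes did not overlap, although M1BP RNAi 3 came close to WT 1, and the log2 fold change was 1.27 (SE 0.27, edgeR adjusted p = 0.0333). Of its exonic bases, 92.5% lie inside exons of unc-13 on the opposite strand, whose product primes synaptic vesicles, and unc-13 itself was at 13900 ± 1628 normalised counts in WT against 14660 ± 1078 after knockdown (SD, n = 3, log2 fold change 0.077, SE 0.090). Reads of an opposite-strand pair on this chromosome were counted for both genes (CG11077 and asRNA:CR44031), so reads of CR43361 and unc-13 cannot be told apart in the shared bases and the value of CR43361 is uncertain. The call was lost without WT 2 (adjusted p = 0.05, just above the threshold before rounding), WT 3 (0.105), M1BP RNAi 1 (0.0963) and M1BP RNAi 2 (0.155).

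**Figure D2:**
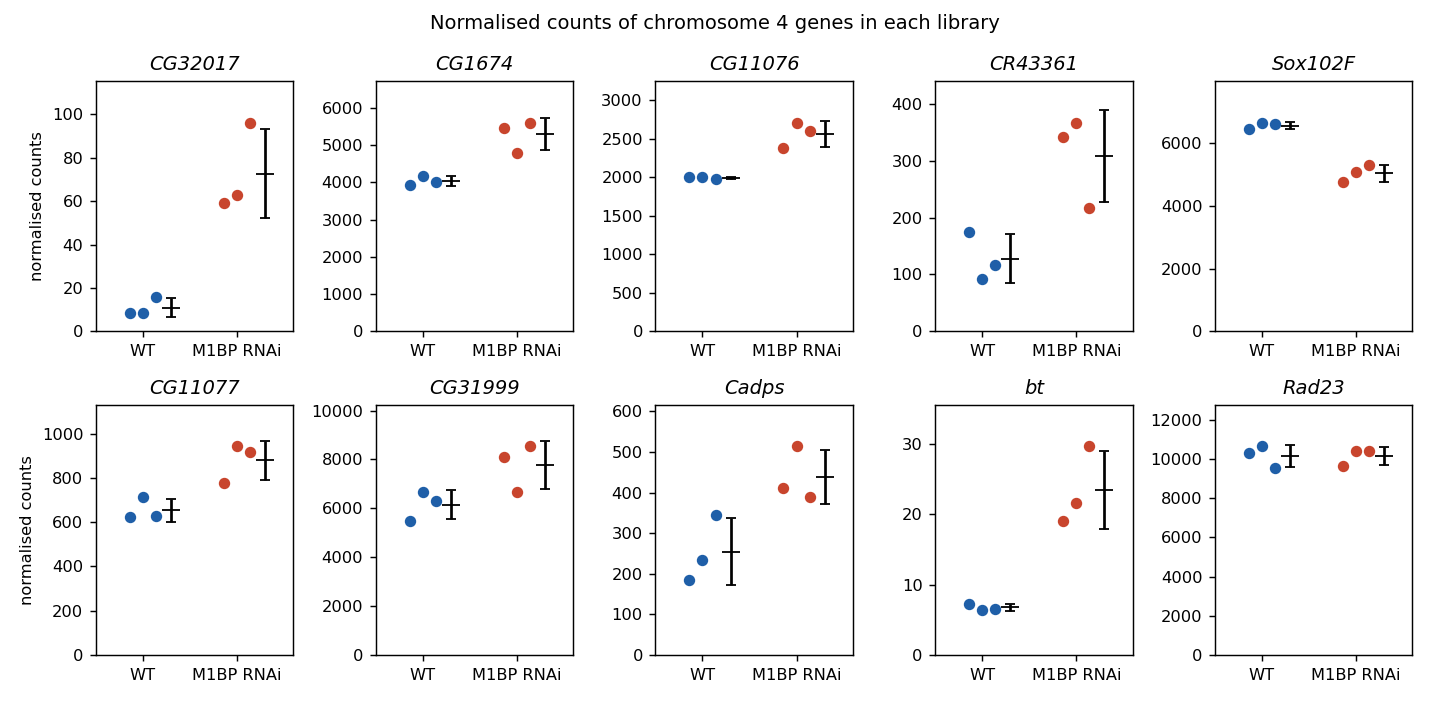
Normalised counts (y axis, each panel from 0) of 10 chromosome 4 genes in each library, with the 3 WT libraries as blue points, the 3 M1BP RNAi libraries as red points and bars for the mean ± SD of each genotype. The genotypes are apart in 8 of the panels and overlap for CG31999, where M1BP RNAi 2 (6653) lies below WT 2 (6664), and for Rad23, whose means are 10160 and 10170.

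A further 5 genes came next by p and were named after their values were seen. CG11077 (chr4:1028675-1029361), which encodes a protein of the Mpv17 family of inner membrane proteins, was at 621.3, 714.3 and 626.2 normalised counts in WT and at 778.6, 941.7 and 916.8 in M1BP RNAi. The 3 knockdown libraries were the higher ones, at a log2 fold change of 0.43 (SE 0.11, edgeR adjusted p = 0.0564). The antisense gene asRNA:CR44031 shares 90.5% of its exonic bases with CG11077 and differed from it by at most 3 counts in any library, so a read in the shared bases was counted for both genes and the 2 are a single measurement. Its log2 fold change was 0.43 (edgeR adjusted p = 0.0543). Cadps, whose product acts in the release of dense-core vesicles, was at 184.3, 233.1 and 345.3 in WT and at 411.3, 513.6 and 389.9 in M1BP RNAi. The knockdown libraries lay above WT 3, the highest WT library, and the log2 fold change was 0.78 (SE 0.22, edgeR adjusted p = 0.0831). CG31999 was at 5491, 6664 and 6309 in WT and at 8116, 6653 and 8534 in M1BP RNAi. Here M1BP RNAi 2 lay among the WT libraries, and the log2 fold change was 0.34 (SE 0.10, edgeR adjusted p = 0.101).

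bt encodes Projectin, a giant titin-like muscle protein with a kinase domain, and it had the lowest level per kilobase of all 85 genes. Its raw counts were 8, 6 and 7 in WT and 19, 20 and 29 in M1BP RNAi. Its counts passed the minimum of 60 only through the M1BP RNAi libraries, so its higher value there was favoured by the selection. The 3 knockdown libraries lay above the WT libraries at a log2 fold change of 1.77 (SE 0.46, edgeR adjusted p = 0.0637), on counts spread over 28019 exonic bases. The 6 markers of differentiated muscle summed to 692 to 778 CPM in WT and to 836 to 956 in M1BP RNAi without overlap, and of the 5 that passed the filter 1 rose (Act57B, log2 fold change 0.39, edgeR adjusted p = 0.0203) and 1 fell (Mlc2, log2 fold change -1.52, edgeR adjusted p = 0.00304). The muscle sum rested mostly on Act57B and sls, at means of 16720 and 17050 normalised counts in WT. The other muscle markers lay between 4.68 (Tm2) and 442 (Mlc2). No muscle marker was at 0 in all libraries. Their part in the value of bt was not tested.

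In order along the chromosome, kept genes with higher values after knockdown followed each other in places. CG31999, yellow-h, asRNA:CR46065 and CG1674 are consecutive between positions 215009 and 245903, with log2 fold changes of 0.34, 0.48, 0.44 and 0.39. For the last 3 of these genes the genotypes did not overlap, and only CG1674 passed the test. A second run held asRNA:CR44031, CG11077, CG11076 and CaMKII between 1027863 and 1053703, with log2 fold changes of 0.43, 0.43, 0.36 and 0.13, and the 4 genes were apart between the genotypes. This second run is consecutive only among the genes kept, as ATPsynbeta, left out by name, lies between CG11076 and CaMKII with a log2 fold change of -0.11. These runs were picked after the values were seen, and some of their genes share exonic bases, so they are described without a test. In the first 28 genes of the chromosome 11 had higher values, in the next 29 there were 13, and in the last 28 there were 17, with medians of -0.039, -0.020 and 0.13. Over all genes tested, 51.3% had higher values. The 3 parts also differed in level, with medians of 25.66, 9.555 and 7.352 CPM per kilobase of exon. The last part counts asRNA:CR44031 and CG11077, a single measurement, as 2 genes, and no trend along the chromosome was tested.

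**Figure D3:**
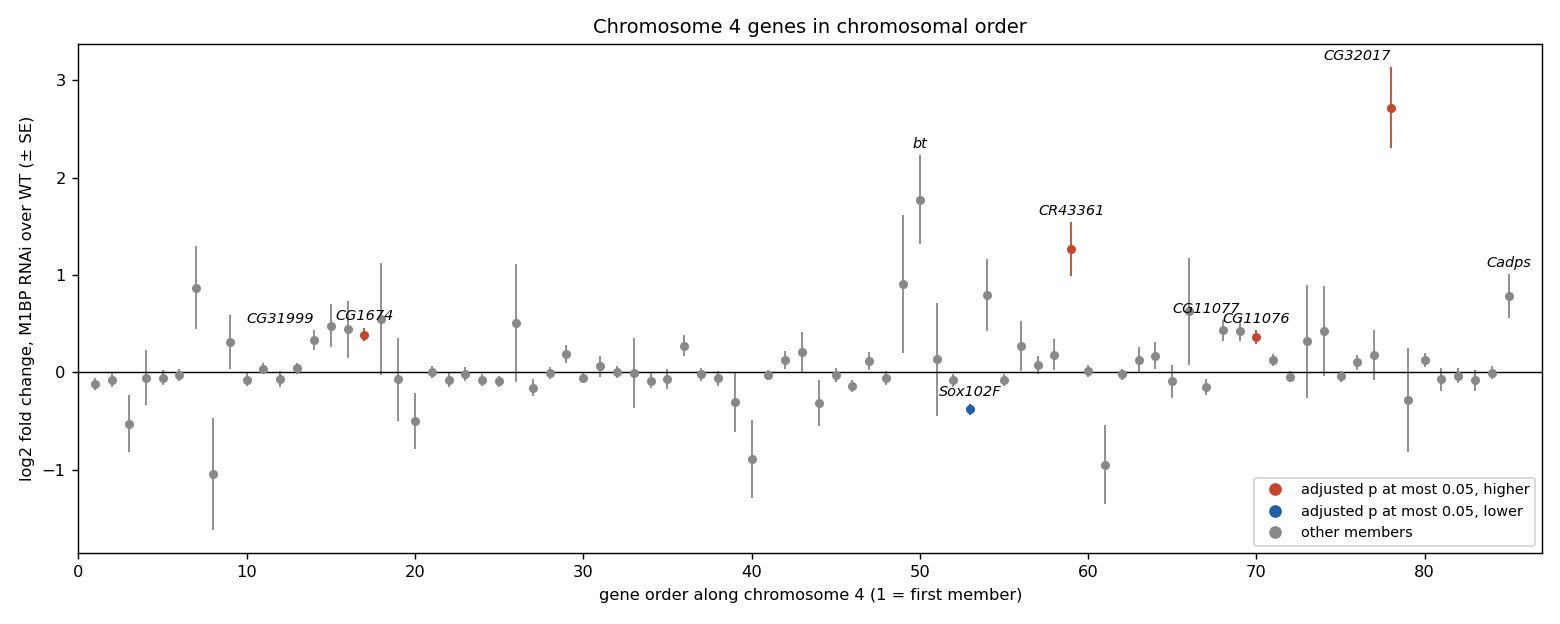
Log2 ratio of M1BP RNAi to WT with its standard error (y axis) for the 85 genes in their order along chromosome 4 (x axis, order number). Red points are the 4 genes higher and the blue point the 1 gene lower at an adjusted p of at most 0.05, grey points are the other 80, and most grey points with short bars lie close to 0.

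No difference was called among the ligand genes. mav, a TGF-beta family ligand, averaged 986.4 ± 106.9 normalised counts in WT against 1080 ± 22.6 after knockdown (SD, n = 3), and its log2 fold change was 0.13 (SE 0.092, edgeR adjusted p = 0.465). myo, which encodes Myoglianin, a relative of vertebrate myostatin, was at 2600 ± 39.4 and 2501 ± 163.4, a log2 fold change of -0.056 (SE 0.068, edgeR adjusted p = 0.691). Neither difference passed the test, and the third ligand gene, Actbeta, was below the count minimum.

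Of the 11 developmental transcription factor genes, Sox102F fell and the other 10 did not pass the test. Values were higher in M1BP RNAi for 6 of the 11. Most of them were barely expressed in myoblasts, with the Pax6-type gene toy at 7.88 ± 3.36 normalised counts in WT against 12.3 ± 4.1 after knockdown (SD, n = 3) and its paralogue ey at 13.69, 16.11 and 17.73 in WT and 68.05, 9.73 and 11.26 in M1BP RNAi. M1BP RNAi 1 alone set the higher mean of ey. zfh2, a zinc-finger homeodomain factor of the wing disc, spread likewise over 582.5, 380.6 and 155.5 in M1BP RNAi against 355.8, 423.2 and 343.4 in WT. The log2 fold change of zfh2 was -0.0035 with an SE of 0.36, so its level was poorly determined. Its lowest library, M1BP RNAi 3, was also the lowest for the epithelial markers crb, Fas3 and grh, and a link between them was not tested. Among the low genes, onecut had the lowest estimate at -0.89 (SE 0.40, edgeR adjusted p = 0.255) and fd102C, a forkhead factor, an estimate of 0.80 (SE 0.37, edgeR adjusted p = 0.261). Mitf, the regulator of lysosomal genes, was better expressed at 1337 ± 200 against 1263 ± 80.5 (log2 fold change -0.081, SE 0.11).

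None of the 7 genes of the chromatin and RNA polymerase II list passed the test, with values higher for 3 and lower for 4. Hcf, a chromatin-bound cofactor, was at 18610, 19240 and 20760 normalised counts in WT and at 18260, 18190 and 18600 in M1BP RNAi. The 3 knockdown libraries lay below the WT libraries by a narrow gap, with a log2 fold change of -0.090 (SE 0.058, edgeR adjusted p = 0.42). The Mediator subunit gene MED26 and bip2, which encodes the TFIID subunit TAF3, had log2 fold changes of -0.081 and -0.053. lgs, a co-activator of Wingless signalling, was at -0.16 (SE 0.087), the lowest of the list. pho, which encodes the DNA-binding recruiter of Polycomb proteins, had a log2 fold change of 0.13 (SE 0.072, edgeR adjusted p = 0.363) and Pur-alpha, a single-strand nucleic acid binding protein, one of 0.28 (SE 0.11, edgeR adjusted p = 0.202), both without overlap between the genotypes.

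The genes of mRNA translation and decay had the highest summed CPM of the role lists. gw, which encodes the Argonaute partner of microRNA silencing, led the 85 genes with 135.5 CPM per kilobase of exon averaged over the 6 libraries. Next in level came ND-49, a subunit of respiratory complex I, with 131.6 CPM per kilobase, the translation initiation factor gene eIF4G1 with 124.3, and Rad23, a DNA repair and ubiquitin-binding factor, with 107.2. The adaptor gene Crk and the ankyrin gene Ank followed with 73.49 and 66.86. In single libraries gw ran from 44730 to 51230 normalised counts in WT and from 43010 to 48940 in M1BP RNAi, and eIF4G1 from 35840 to 40600 and from 37110 to 40050. The ranges overlapped in each case, with log2 fold changes of -0.027 (SE 0.071) for gw and 0.011 (SE 0.063) for eIF4G1. None of the 4 genes of the list, which also held Gyf and the decapping regulator 4E-T, passed the test.

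At the other end of the scale stood bt with 0.0115 CPM per kilobase, toy with 0.0552 and the apolipophorin gene apolpp with 0.0607. apolpp, a product of the fat body, had 28.28, 37.59 and 23.33 normalised counts in WT against 10.01, 35.68 and 65.49 in M1BP RNAi. Its M1BP RNAi libraries enclosed the WT range (log2 fold change 0.32, SE 0.58), and leaving out M1BP RNAi 3 turned the estimate to -0.39. The 5 fat body markers summed to 0.16 to 0.23 CPM in WT and to 0.171 to 0.74 in M1BP RNAi, and none of them passed the filter on low counts. The median level of the 85 genes was 13.07 CPM per kilobase, against 13.08 for all genes tested.

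In the list of guidance, adhesion and cytoskeletal signalling, 12 of the 13 genes were tested and none passed. Values were lower in M1BP RNAi for 10 of the 12, at a median log2 fold change of -0.048, where 51.3% of all genes tested had higher values. The summed CPM of the list overlapped between the genotypes, at 1700 to 1880 in WT and 1650 to 1730 in M1BP RNAi. PlexA, a semaphorin receptor gene, was at 18340, 16060 and 20170 normalised counts in WT and at 16150, 16420 and 16650 in M1BP RNAi. WT 3 was the highest library and WT 2 the lowest, and the log2 fold change was -0.15 (SE 0.079, edgeR adjusted p = 0.327). PlexA passed an adjusted p of 0.05 only when WT 2 was left out. Its paralogue PlexB was at -0.12 (SE 0.063), and Slip1 was at -0.14 (SE 0.061, edgeR adjusted p = 0.241). The knockdown libraries of Slip1 lay below each WT library only barely, with M1BP RNAi 3 at 4902 and WT 1 at 4903 normalised counts. The receptor and ligand pair Eph and Ephrin was at -0.023 (SE 0.054) and -0.061 (SE 0.081).

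The synapse and ion transport list had 10 of its 11 genes tested, with values higher for 3, lower for 7 and no call. PMCA, the calcium pump of the plasma membrane, was the most abundant at 20020 ± 1284 normalised counts in WT against 18990 ± 587.9 after knockdown (SD, n = 3, log2 fold change -0.076, SE 0.062). mGluR, a metabotropic glutamate receptor gene, was at 28.28, 21.48 and 24.26 in WT and at 11.01, 12.97 and 14.33 in M1BP RNAi. The knockdown libraries were all lower, at a log2 fold change of -0.95 (SE 0.41, edgeR adjusted p = 0.228). Syt7, a synaptotagmin gene, was likewise apart between the genotypes at -0.50 (SE 0.29, edgeR adjusted p = 0.365). None of the 7 genes of metabolism, DNA repair and protein turnover passed the test. Among the genes named from the lists, PMCA shares 40.5% of its exonic bases with CG32850 and bip2 shares 19.8% with asRNA:CR45126. zfh2 shares 18.7% with Thd1 and yellow-h shares 12.1% with asRNA:CR46065. Reads in the shared bases cannot be told apart, so these values are uncertain, and the share of reads that fell there was not determined.

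The well-expressed genes with the smallest log2 fold changes were Rad23, Asator, CaMKI and Dyrk3, which were chosen for that. Rad23 was at 10300, 10640 and 9535 normalised counts in WT and at 9644, 10430 and 10420 in M1BP RNAi. The genotypes were interleaved, and the log2 fold change was 0.0010 with a 95% confidence interval of -0.14 to 0.14. Asator and CaMKI, which encode protein kinases, and Dyrk3, of the Dyrk kinase family, had log2 fold changes of 0.0018 (SE 0.063), -0.0031 (SE 0.059) and -0.0032 (SE 0.065). These 4 genes come from those with at least 500 normalised counts and their values are a description. The sign of such a small value changed with the scaling for Rad23 and Asator.

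**Figure D4:**
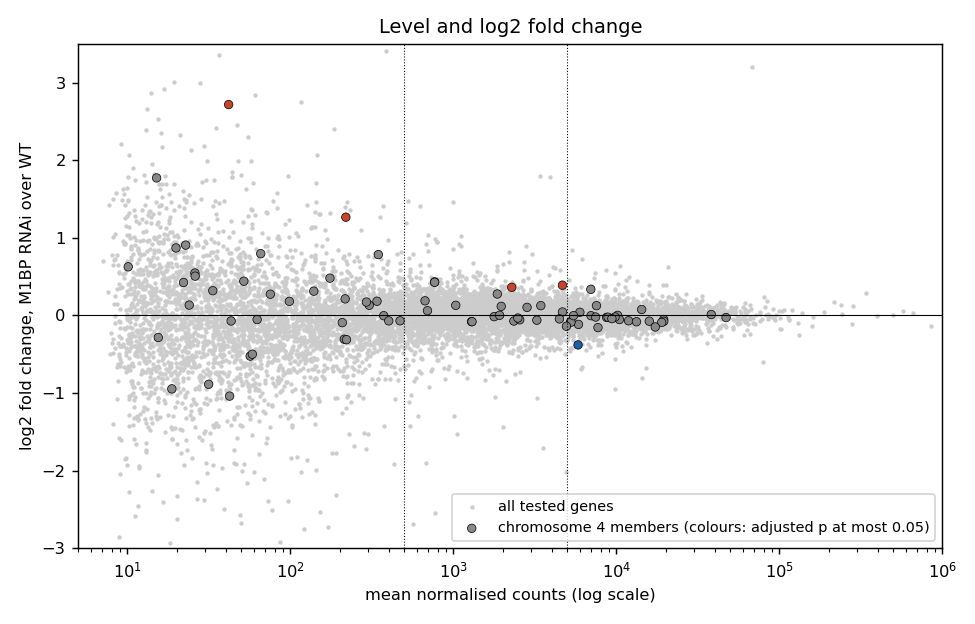
Log2 ratio of M1BP RNAi to WT (y axis) against the mean normalised counts of the 6 libraries (x axis, log scale) for all tested genes within the axes (light grey) and the 85 chromosome 4 genes (outlined; red and blue, adjusted p of at most 0.05), with dotted lines at 500 and 5000. The chromosome 4 genes spread widely at low levels, from -1.04 to 2.72 under 500, and lie between -0.38 and 0.34 at 5000 or more.

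The direction of the values was also counted by level. Under 500 normalised counts, 22 of 36 genes had higher values in M1BP RNAi, beside 1801 of the 3948 tested genes of that level. The median log2 fold change was 0.18, beside -0.043. This class holds CG32017, bt and toy, which passed the filter or the count minimum only through M1BP RNAi, so higher values were favoured. It also counts pairs that share reads, such as fuss and asRNA:CR44030, which differed by at most 18 counts in any library. The median deviation of the 36 low genes from their mean over the libraries was -0.026, -0.119 and 0.034 in WT. In M1BP RNAi it was 0.086, 0.155 and -0.037, so the genotypes overlapped, and the median SE of these genes was 0.30. From 500 to 5000 there were 13 of 22 higher with a median of 0.053, beside 0.033. At 5000 or more, 21 of 27 genes had lower values (77.8%) with a median of -0.041, beside 52.5% of the 2179 tested genes of that level and a median of -0.0066. The boundary of 5000 was chosen after the values were seen, and no test was run on these classes. The interval of all 27 abundant genes stayed within 1.5-fold, and the differences were small beside the spread of single libraries: the median deviation of the 27 genes from their mean over the 6 libraries was -0.016, -0.044 and 0.094 in WT and -0.014, -0.048 and 0.0000037 in M1BP RNAi. WT 3 stood above the other 5, which did not separate by genotype, and without WT 3 there were 17 of the 27 genes with lower values and a median of -0.027.

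**Figure D5:**
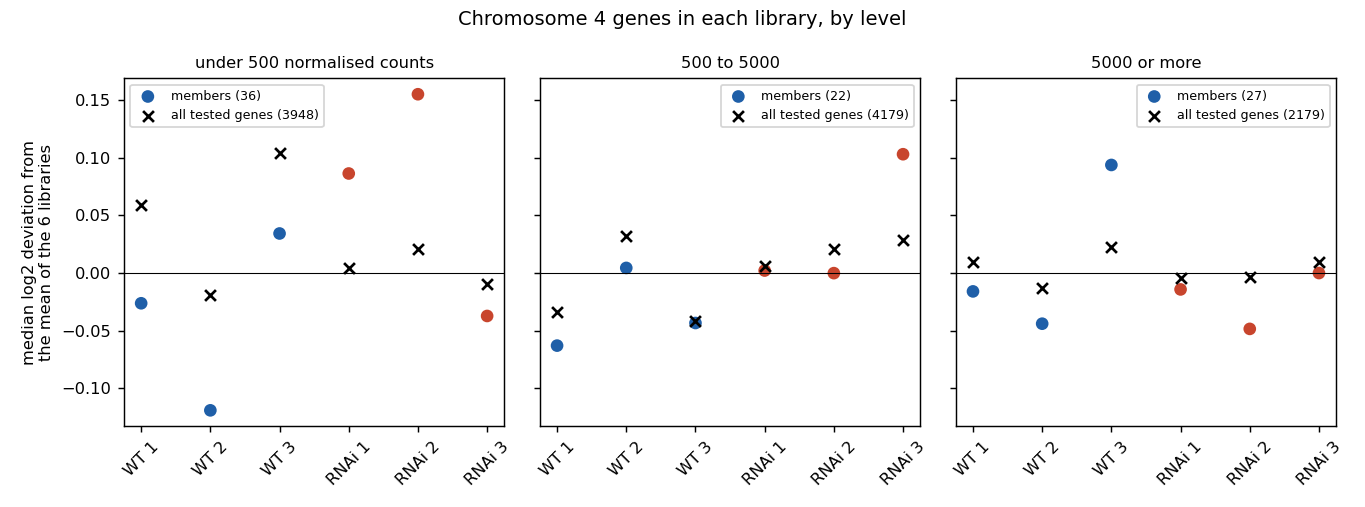
Median log2 deviation from the mean of the 6 libraries (y axis) in each library (x axis) for chromosome 4 genes (circles, WT blue and M1BP RNAi red) and all tested genes (crosses) of 3 level classes, under 500, 500 to 5000 and 5000 or more normalised counts. In the right-hand panel WT 3 stands at 0.094 and the other 5 libraries lie between -0.048 and 0.0000037.

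The genes were long and rich in introns, which the selection did not use and which is given as a description. The median span from first to last exonic base was 9160 bases, against 2530 for all genes tested, with 3921 against 1972 exonic bases, 8 against 4 merged exons and 50.8% against 84.4% of the span in exons. Exons overlapped those of another gene for 34 of the 85 genes (40%), against 43.4%. The median log2 fold change of these 34 was 0.10 with 20 values higher, and the 51 without overlap had a median of -0.023 with 21 higher. The 14 genes that do not code for protein had a median of 0.16 with 9 higher, and the 71 protein-coding genes one of -0.016 with 32 higher. Over all genes tested, 51.3% had higher values. Noncoding genes here often lie across the exons of a coding gene, so the 2 divisions share members. Pairs that share reads count as separate genes in them. CG11077 and asRNA:CR44031 differed by at most 3 counts in any library, and fuss and asRNA:CR44030 by at most 18.

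Regulators of the chromosome and of heterochromatin, which lie elsewhere in the genome, were examined beside these values. Of 20 listed genes 19 were tested, HP1e being all but absent, and 1 fell and none rose, where 2.17% of all genes tested fell and 1.92% rose at an adjusted p of at most 0.05. A single call among 19 is near that background. Su(var)2-HP2, which encodes a partner of HP1a in heterochromatin, was at 13050, 10910 and 12750 normalised counts in WT and at 9625, 9329 and 9006 in M1BP RNAi. The 3 knockdown libraries lay below each WT library, at a log2 fold change of -0.39 (SE 0.074, edgeR adjusted p = 0.0184). Pof was at 2180 ± 108.8 and 2197 ± 181.7 (SD, n = 3, log2 fold change 0.012, SE 0.079), egg at 0.016 (SE 0.059) and its cofactor gene wde at -0.015 (SE 0.067). The HP1a gene was at 14250 ± 634.4 and 15340 ± 420.8 (log2 fold change 0.11, SE 0.057, edgeR adjusted p = 0.333).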

How the data were processed

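PolyA RNA of 6 myoblast libraries was amplified as full-length cDNA with a low-input kit and fragmented with Tn5. The authors deposited raw counts of uniquely aligned reads per gene over its exons (dm6). The submitters' processing notes name bcl2fastq 2.17.1.14, Subread 2.0.3, featureCounts and DESeq2 1.3.0. The aligner and the use of strand are not given in the sources used here. A second deposited table holds the authors' mean signal per gene (counts scaled by size factors) and their log2 fold changes, standard errors and p-values. None of these values was used, and 17441 symbols were read from it.

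Counts were tested with edgeR 4.0.16 (R 4.3.3), with TMM scaling, filterByExpr (minimum count 10) and a genotype term in glmQLFit and glmQLFTest. P-values of the 10306 tested genes were adjusted by the Benjamini-Hochberg method, and the spread between libraries of a genotype amounted to a common coefficient of variation of 11.9%. Standard errors were derived from the estimate and F. Normalised counts are counts over effective library size times its mean. Levels between genes are CPM per kilobase of exon. Exon overlaps were found with GenomicRanges 1.54.1. DESeq2 1.42.0 served as an alternative, DESeq2 being the tool the study used. Other alternatives were the scaling, the filter, a replicate block and leaving out each library. The procedure was tested on simulated data. Replicates differed by more than sampling noise (chi-square per degree of freedom 10.7 to 51.7).

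Members, gene lists and tests were chosen with earlier results of these data known. The named genes were M1BP, every member at an adjusted p of at most 0.05, the 6 highest and 3 lowest by level per kilobase, the 4 with the smallest change among those with a mean of at least 500 normalised counts, members of the role lists within their list, and others stated as chosen after their values were seen. Gene biotypes came from Ensembl release 115, in which 84 of the 85 spans matched. Promoter motifs were not analysed here. Reads carried no molecular identifiers, so amplified copies counted as reads.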

Additional observations from a re-analysis of the deposited data

How the results depend on the processing

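The 85-gene median of the log2 fold changes moved by less than the pooled SD of the library medians (0.034) under every alternative run, from -0.024 to 0.021 when 1 library was left out, with a sign above 0 without WT 3 and without M1BP RNAi 2. No gene was past the study's threshold except with DESeq2, the study's own tool, which gave 2 (172 of all genes against 49 with edgeR). Leaving out 1 library gave 0 to 0 with edgeR. At an adjusted p of at most 0.05 the main fit called 5 of the 85 genes, against 422 of all genes (4.09%). The calls became 8 with no filter on low counts, against 527 of all genes (3.63%). With DESeq2 they became 9, against 867 of all genes (7.97%). The same 5 genes were among them in each case. When 1 library was left out there were between 3 and 7, against 177 to 764 of all genes (1.68% to 7.23%). asRNA:CR44031, CG11077 and Cadps were the additions in the first of these settings, CG31999 came in with DESeq2, and PlexA was called only without WT 2. The cause was not tested.

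Changes of sign occurred only for genes that were not called. Rad23 was at -0.0065 with RLE size factors, -0.00081 with library totals, -0.00014 with no filter and -0.0063 with DESeq2, and Asator at -0.0055 with RLE size factors, -4.54e-05 with library totals and -0.0053 with DESeq2. With 1 library left out, log2 fold changes ran from -0.074 to 0.025 for gw, -0.082 to 0.038 for ND-49, -0.035 to 0.054 for eIF4G1, -0.050 to 0.033 for Rad23, -0.10 to 0.031 for Ank, -0.39 to 0.76 for apolpp, -0.023 to 0.025 for Asator, -0.039 to 0.021 for CaMKI and -0.063 to 0.032 for Dyrk3. Among abundant genes (5000 or more), an alternative added after seeing the data, between 17 and 23 of 27 had lower values over all settings.

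Replicate numbers did not pair the libraries, as the correlations of same-numbered deviations were 0.0314, -0.0459 and -0.162. With the replicate block 0 genes passed the study's threshold and 5 an adjusted p of 0.05, the same 5 genes, with a median of -0.0026. Of the 36 genes under 500 counts, the interval stayed within 1.5-fold for 6. The part of depth and of the spread between libraries in this was not tested. The alternative with a minimum count in every library and the promoter motif alternative were not run.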
